A study of Mus musculus with 12 samples.

Results

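The genes described here encode the protein subunits of the cytosolic ribosome. They were taken by symbol, as every entry of the count table named Rpl or Rps followed by a number and optionally a or x, together with Rplp0, Rplp1, Rplp2 and Rpsa. This gave 76 of the 36875 symbols, of which 46 belong to the large (60S) subunit and 30 to the small (40S) subunit. All 76 passed the expression filter and were among the 15049 genes tested. Pseudogenes and paralogs with other names were left out by the rule, and with them genes that do encode ribosomal proteins, such as Rps3a1 and Fau, which are described among the related genes.

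A ribosome holds 1 copy of nearly every ribosomal protein, and cells keep the supply of these proteins in balance with one another and with ribosomal RNA. Their messenger RNAs are short and abundant. Most begin with a run of pyrimidines called the 5' terminal oligopyrimidine (TOP) motif, through which the growth-controlling kinase complex mTORC1 regulates their translation, so the RNA level and the rate of protein synthesis from it can move apart. In synovial fibroblasts, which form the connective tissue lining of joints, ribosomes carry the synthesis of matrix and other secreted proteins.

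RNA was measured by sequencing of poly(A)-enriched libraries from cultured fibroblast-like synoviocytes of mice, in 12 libraries that form 3 groups of 4. For the resolution group, animals drank 5% sucrose water with doxycycline at 1 mg/ml during 3 weeks and doxycycline was then stopped (DOX OFF in the descriptions). The inflammation group received the same doxycycline course without the stop (DOX ON), and the homeostasis group received 5% sucrose water for 3 weeks and is called WT in its descriptions. A single protocol covers every sample and names mice with arthritis induced by tumour necrosis factor (TNF). The labels give no allele, sex, passage number or time between the stop of doxycycline and harvest, and do not say which cells make TNF. Whether each library stands for its own animal or culture is also not stated, and the p-values therefore measure the spread between these libraries, which may be technical.

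Total counts ran from 18120745 to 34971537 per library. Of 11 fibroblast markers, Col1a1 and Vim were abundant in every library, and Lum was at 9.66 to 34.2 CPM (counts scaled to each library's total count). The 11 summed to 11478 to 16806 CPM in resolution, 21801 to 24331 in inflammation and 27486 to 31255 in homeostasis. Against homeostasis 8 were lower and 2 higher in resolution (all genes tested: 25.8% and 27.5%). In inflammation 5 were lower and 2 higher (all genes tested: 18.3% and 19.0%). Dcn was at 770 to 1102 CPM in resolution, 827 to 1082 in inflammation and 98.8 to 207 in homeostasis. The Y-linked gene Ddx3y was at 0 in the 4 resolution libraries, which allows up to 0.166 CPM in the shallowest of them, at 0 to 0.138 CPM in the 4 inflammation libraries and at 20.6 to 25.9 CPM in the 4 homeostasis libraries. Sex of the animals and doxycycline therefore cannot be told apart in either comparison against homeostasis. The homeostasis group alone is called WT, and a difference in genotype, if that name marks one, cannot be told apart from them either. These are bulk samples, in which fewer cells with much ribosomal protein RNA and less of it per cell cannot be told apart.

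Together the 76 genes took up a smaller part of the RNA in both doxycycline groups than in homeostasis. Their summed counts made up 1.55%, 1.34%, 1.24% and 1.37% of all counts in the 4 resolution libraries, 1.58%, 1.49%, 1.30% and 1.17% in the 4 inflammation libraries, and 1.81%, 1.82%, 1.79% and 1.87% in the 4 homeostasis libraries. Every homeostasis library lay above every library of the other groups, and the homeostasis libraries were the closest to one another. The means were 1.37 ± 0.128% in resolution, 1.38 ± 0.185% in inflammation and 1.82 ± 0.0327% in homeostasis (SD, n = 4 each). The ratio of the means was 0.755 for resolution against homeostasis and 0.760 for inflammation against homeostasis, and 0.993 between resolution and inflammation. The subunits moved alike. In TMM-normalized CPM, the scale of all levels given for members and related genes, the 60S genes summed to 7050 ± 496 in resolution, 7394 ± 838 in inflammation and 10402 ± 672 in homeostasis, and the 40S genes to 6063 ± 496 in resolution, 6457 ± 819 in inflammation and 8683 ± 450 in homeostasis (SD, n = 4 each). Without Rpl4, Rpl8 and Rplp0, the 3 members with most counts, the ratios were 0.776 for resolution and 0.782 for inflammation, each against homeostasis. No test was run on these sums, because the genes were chosen with earlier results of the same data known.

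**Figure D1:**
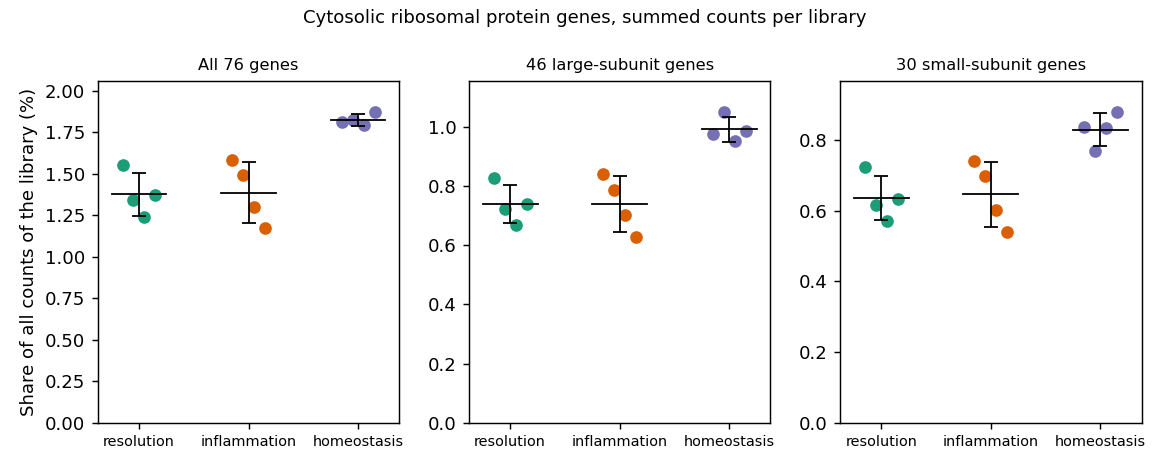
Summed counts of all 76 ribosomal protein genes (left), the 46 large-subunit genes (middle) and the 30 small-subunit genes (right), as a percentage of all counts of each library. Each point is 1 library and bars give the mean ± SD of 4 libraries. The homeostasis libraries stand at 1.79 to 1.87% for all genes, above the resolution (1.24 to 1.55%) and inflammation (1.17 to 1.58%) libraries.

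The levels of single members spread widely. Per kilobase of transcript, Rpl8 (1419 CPM per kilobase, mean of 12 libraries) and Rps9 (1020) were the highest, and Rps29 (7.32), Rpl30 (8.91) and Rpl29 (18.6) the lowest. In a ribosome these proteins are present in equal numbers. Many ribosomal protein genes have near-identical processed pseudogenes, and the sources used here do not say how the authors' counting treated reads that match several places. As a measure of this, the transcript of each member was divided into all windows of 100 bases, and a window was called shared where another gene's transcript holds the same bases. The 14 members with under 20% shared windows had a median of 584 CPM per kilobase, the 36 with 20 to 60% had 127, and the 26 with at least 60% had 77.7. Across the 76 members, level per kilobase and percent of shared windows had a Spearman's rho of -0.36, a description of genes measured in the same libraries. Levels of members with many shared windows are therefore uncertain. The differences between groups had similar medians in these classes. The median log2 fold change of resolution over homeostasis was -0.50, -0.58 and -0.50 in these classes, in order of sharing, and that of inflammation over homeostasis was -0.35, -0.38 and -0.41.

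Rps27 shows how far the assignment can go. Its protein is a zinc-containing subunit of the 40S ribosome, and 98.4% of its windows were shared with 2 other genes. Rps27 had 12.9 ± 1.66 CPM in resolution, 13.2 ± 2.34 in inflammation and 17.5 ± 2.52 in homeostasis (SD, n = 4 each). Its retrotransposed copy Rps27rt, which the rule leaves out, had 173 ± 16.2 CPM in resolution, 182 ± 26.5 in inflammation and 212 ± 10.6 in homeostasis. The copy thus carried more counts than the gene named Rps27 in every group, and which of the pair gave the reads cannot be told from gene-level counts.

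Ribosomal protein genes usually start transcription within a run of pyrimidines. RefSeq promoter sequences (assembly GRCm38.p6) were available for 56 of the 76 members, in 66 entries. The pyrimidine runs CTCTTT or CTTTCC, which can overlap, were found on the gene's strand within 25 bases of the annotated start in 22.7% of these entries and in 4.12% of all 32851 entries. On the other strand they were found there in 1.52% of the members' entries and 3.75% of all. The motif CCGGAAG, the core bound by ETS-family factors such as GABP, lay on either strand of the 300-base promoter in 36.4% of the members' entries and in 8.86% of all. A match is a description of the letters only, and the annotated start may not be the one used in these cells. The following windows are shown for members that the results below turn on: Rpsa, Rps2 and Rpl6, which had some of the largest falls, Rpl38 and Rps6, which passed in 1 of the comparisons against homeostasis, and Rps15a and Rps4x, which passed in none. Each window holds 60 bases read 5' to 3' on the gene's strand, 40 before the start and 20 from it, so that the start is base 41, and capitals mark CTCTTT or CTTTCC or CCGGAAG.
Rpsa (chr9:120127726-120127785, plus strand): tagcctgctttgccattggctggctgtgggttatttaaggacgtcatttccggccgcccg
Rps2 (chr17:24720023-24720082, plus strand): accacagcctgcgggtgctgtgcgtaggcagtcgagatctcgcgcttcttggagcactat
Rpl6 (chr5:121204461-121204520, plus strand): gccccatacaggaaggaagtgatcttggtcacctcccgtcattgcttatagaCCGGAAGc
Rpl38 (chr11:114668540-114668599, plus strand): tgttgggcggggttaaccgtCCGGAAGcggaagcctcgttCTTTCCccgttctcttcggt
Rps6 (chr4:86857348-86857407, minus strand): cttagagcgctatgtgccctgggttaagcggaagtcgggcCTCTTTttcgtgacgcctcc
Rps15a (chr7:118116128-118116187, minus strand): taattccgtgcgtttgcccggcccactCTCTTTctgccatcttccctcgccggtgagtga
Rps4x (chrX:102189372-102189431, minus strand): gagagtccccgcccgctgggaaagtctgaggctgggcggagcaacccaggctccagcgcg
Of the 15 members with CTCTTT or CTTTCC within 25 bases of the start, 10 fell in resolution and 8 in inflammation, each against homeostasis. Their median log2 fold changes were -0.50 and -0.41, and 25.8% and 18.3% of all genes tested were lower. Of the 41 with neither of these, 34 fell in resolution and 23 in inflammation, with medians of -0.58 and -0.39. Other runs of pyrimidines were not searched for, and members of either class may have them. The difference between these classes was not tested.

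Resolution was compared with homeostasis to ask how cells taken after doxycycline was stopped differ from cells of animals that received none. Most ribosomal protein genes were lower in resolution. In edgeR's quasi-likelihood test, with p-values adjusted over all 15049 genes and a threshold of 0.05, 57 of the 76 were lower, 1 was higher and 18 did not pass. Of all genes tested, 25.8% were called lower in the same comparison. The log2 fold changes ran from -1.08 to 0.40 with a median of -0.51, or 0.701-fold, against a median of -0.01 over all genes tested. In 53 members every resolution library lay below every homeostasis library, and 21.6% of all genes did so. By subunit, 36 of 46 large-subunit genes and 21 of 30 small-subunit genes were lower, with medians of -0.55 and -0.49. The 18 members that did not pass were Rpl5, Rpl9, Rpl17, Rpl21, Rpl23, Rpl23a, Rpl24, Rpl26, Rpl28, Rps4x, Rps6, Rps14, Rps15a, Rps20, Rps24, Rps26, Rps28 and Rps29, and the member called higher was Rpl7.

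Inflammation was compared with homeostasis to ask how cells of animals on doxycycline throughout differ from cells of animals that received none. Again the direction was downward: 42 of the 76 members were lower, none was higher and 34 did not pass, while 18.3% of all genes were called lower. None was higher in DESeq2 or limma-voom either. At an unadjusted p under 0.05, 53 members differed, while 37.2% of all genes passed the adjusted threshold in either direction. How many of all genes differed at the unadjusted threshold was not counted. The log2 fold changes ran from -0.79 to 0.39 with a median of -0.39, or 0.764-fold, against -0.01 over all genes, and 75 of the 76 were below 0. In 37 members every inflammation library lay below every homeostasis library, and 17.3% of all genes did so. Of the 17 members with transcripts under 500 bases, 4 were lower, and Rpl36, Rpl38, Rpl39 and Rpl41 were among those that did not pass. Library 4 of inflammation had the lowest summed share of its group. Without it the count of members called lower was 24, with a median of -0.29, and 16.3% of all genes were lower. Both comparisons use the same 4 homeostasis libraries, so they are not independent of each other.

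**Figure D2:**
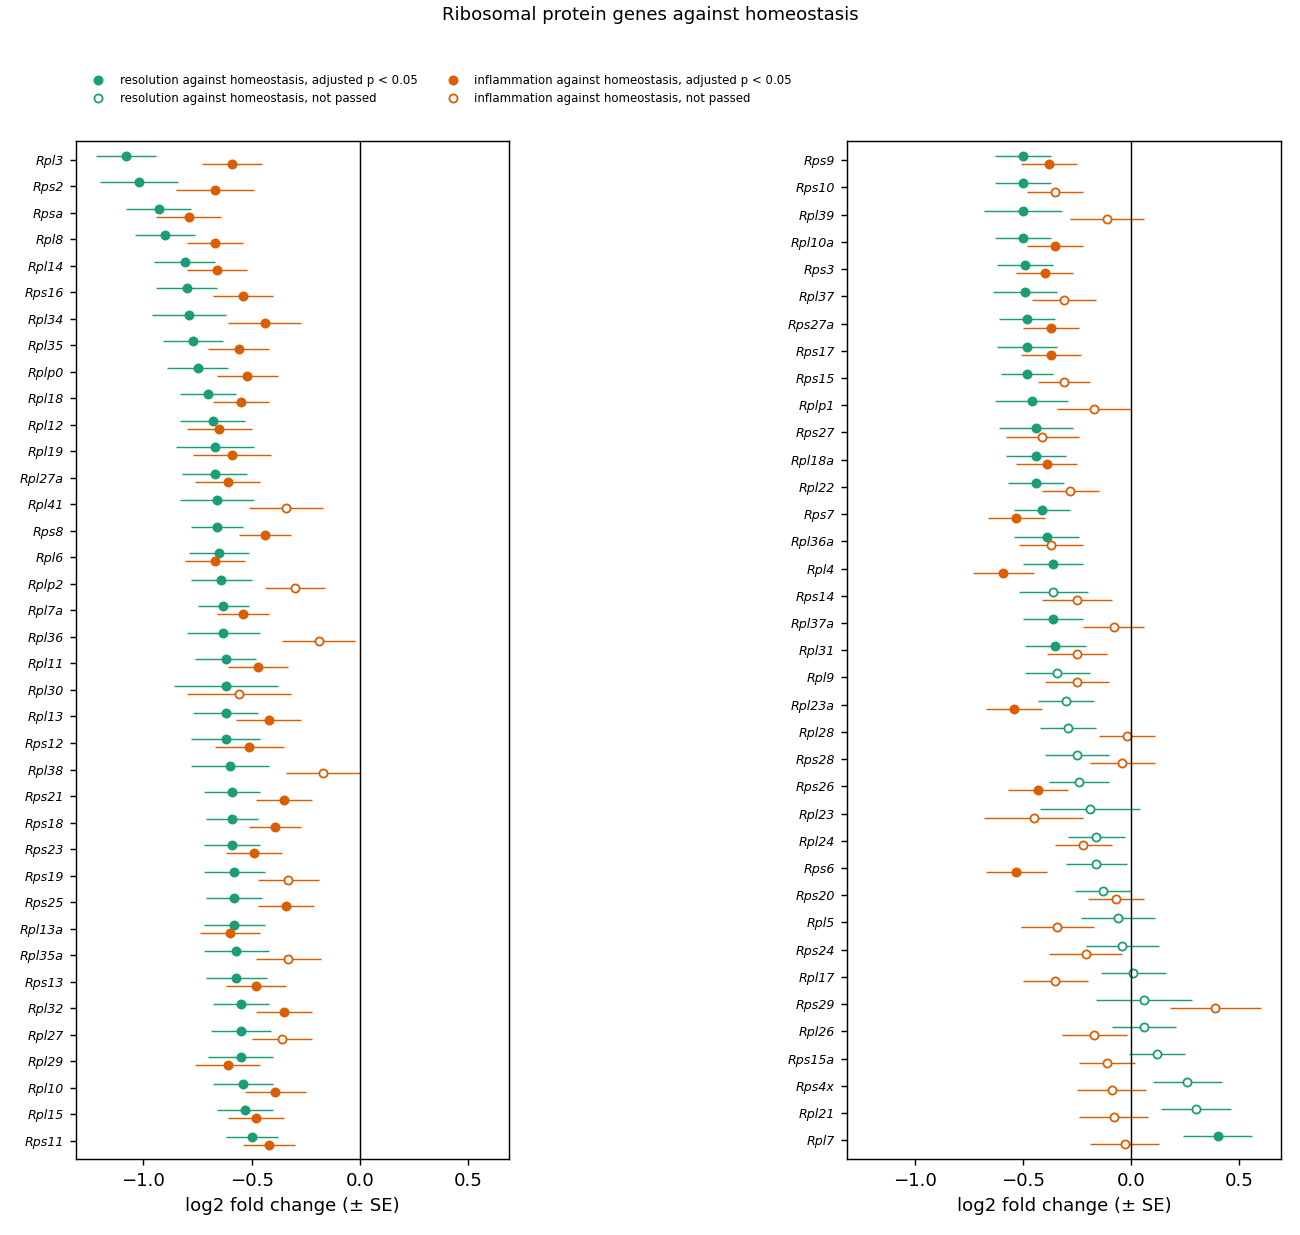
Log2 fold changes (± SE) of 75 ribosomal protein genes in resolution against homeostasis (green) and inflammation against homeostasis (orange), ordered by the value in resolution, lowest at the top left. Filled points passed an edgeR adjusted p of 0.05 and open points did not. Almost all points lie left of 0, with Rpl3 at -1.08 lowest and Rpl7 at 0.40 highest in resolution.

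Without the correction for GC content and transcript length given below, the largest falls in resolution against homeostasis were in Rpl3, Rps2, Rpsa and Rpl8. Rpl3, whose protein lies near the peptidyl transferase centre where peptide bonds form, had 186, 192, 142 and 158 CPM in the resolution libraries, 272, 247, 229 and 207 in the inflammation libraries and 336, 435, 318 and 350 in the homeostasis libraries. No library of 1 group overlapped with another group, and the resolution libraries were the lowest. Its log2 fold change was -1.08 ± 0.14 (SE) in resolution against homeostasis (edgeR adjusted p = 2.99e-06) and -0.59 ± 0.14 in inflammation against homeostasis (edgeR adjusted p = 0.00248). Rpl3 (chr15:80077791-80091868, minus strand, GRCm38) shares 79.4% of its windows with transcripts of 7 other genes, so its level is uncertain in the sense given above. Rps2, a 40S subunit close to the path of the messenger RNA, had 577, 518, 416 and 490 CPM in resolution, 754, 706, 586 and 504 in inflammation and 1087, 656, 1079 and 1248 in homeostasis. Library 2 of homeostasis was the lowest of its group and lay between the inflammation libraries. The log2 fold change of Rps2 was -1.02 ± 0.18 in resolution (edgeR adjusted p = 7.49e-05) and -0.67 ± 0.18 in inflammation (edgeR adjusted p = 0.00513), each against homeostasis.

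Rpsa encodes a 40S protein that is also known as the laminin receptor precursor. It had 440, 412, 291 and 350 CPM in the resolution libraries, 484, 432, 377 and 351 in the inflammation libraries and 576, 804, 668 and 792 in the homeostasis libraries. All homeostasis libraries were above all others, and the 2 doxycycline groups overlapped. The log2 fold change was -0.93 ± 0.15 in resolution (edgeR adjusted p = 4.81e-05) and -0.79 ± 0.15 in inflammation (edgeR adjusted p = 0.000487), each against homeostasis, and the inflammation value was the largest fall of any member in that comparison. Rpl8, a 60S core protein, was the highest member per kilobase and shared 1.7% of its windows with other genes. It had 1009, 961, 764 and 867 CPM in resolution, 1202, 1115, 1008 and 870 in inflammation and 1442, 1805, 1622 and 1826 in homeostasis, so that homeostasis was again above every other library. It fell by 0.90 on the log2 scale in resolution (SE 0.14, edgeR adjusted p = 1.84e-05) and by 0.67 in inflammation (SE 0.13, edgeR adjusted p = 0.000630). Rpl6, also of the 60S subunit, had 309, 286, 247 and 289 CPM in resolution, 320, 272, 273 and 249 in inflammation and 405, 560, 389 and 422 in homeostasis. Its fall was about the same in both groups, at -0.65 ± 0.14 in resolution (edgeR adjusted p = 0.000513) and -0.67 ± 0.14 in inflammation (edgeR adjusted p = 0.000693), each against homeostasis.

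Rps9, among the highest members per kilobase, and Rpl29 and Rpl30, among the lowest, all fell in resolution against homeostasis. Rps9, whose protein takes part in decoding accuracy, had 702, 695, 594 and 639 CPM in resolution, 828, 785, 671 and 564 in inflammation and 837, 943, 912 and 1024 in homeostasis. The groups with doxycycline lay below homeostasis without overlap, and the fold change was -0.50 ± 0.13 in resolution (edgeR adjusted p = 0.00363) and -0.38 ± 0.13 in inflammation (edgeR adjusted p = 0.0280). The inflammation call of Rps9 was lost without inflammation library 3 or 4 or homeostasis library 2 or 4. At the low end, Rpl29 had 10.3, 8.59, 10.0 and 9.10 CPM in resolution, 10.6, 8.68, 8.32 and 8.84 in inflammation and 15.1, 15.7, 13.0 and 11.8 in homeostasis, with homeostasis above all other libraries. Its fall was 0.55 in resolution (SE 0.15, edgeR adjusted p = 0.00551) and 0.61 in inflammation (SE 0.15, edgeR adjusted p = 0.00415). Rpl30 had 3.76, 4.34, 4.90 and 4.11 CPM in resolution, 5.35, 5.16, 3.82 and 3.49 in inflammation and 6.70, 9.94, 4.73 and 4.67 in homeostasis. Its homeostasis libraries split, with 3 and 4 at the level of the other groups, and its call in resolution (-0.62 ± 0.24, edgeR adjusted p = 0.0344) was lost without resolution library 1 or 4 or homeostasis library 1 or 2. In inflammation Rpl30 did not pass (-0.56 ± 0.24, edgeR adjusted p = 0.0691).

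**Figure D3:**
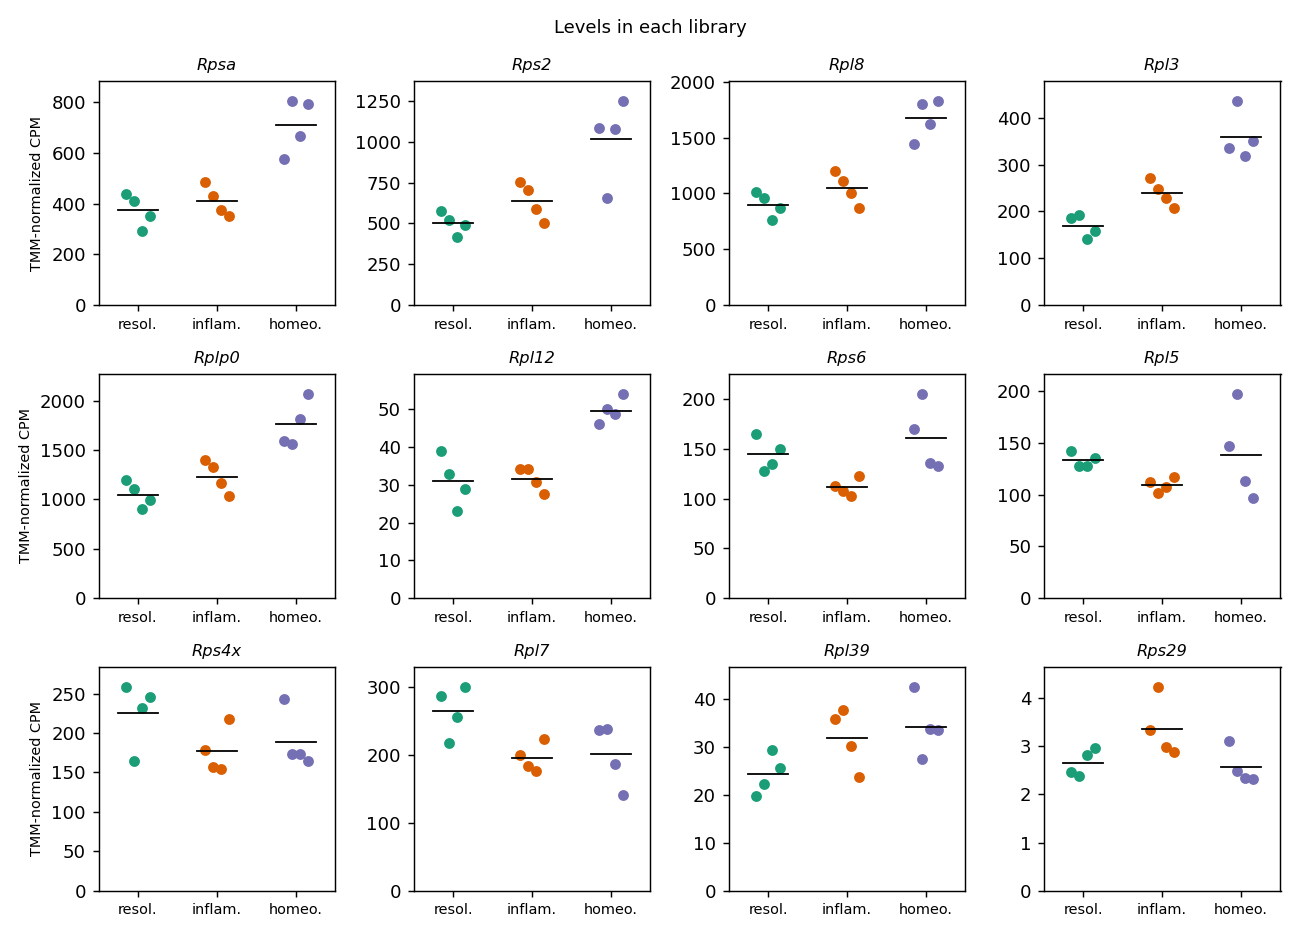
Levels of 12 members in each library, as TMM-normalized CPM, with a line at the mean of each group of 4. Rpsa, Rpl8, Rpl3, Rplp0 and Rpl12 have every homeostasis library above both other groups, while Rps6, Rpl5, Rps4x, Rpl7 and Rps29 overlap in at least 1 of the comparisons against homeostasis. Each vertical axis starts at 0.

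The stalk of the large subunit recruits and activates the GTPases of translation. Its base is formed by Rplp0 (uL10) and Rpl12 (uL11), and dimers of Rplp1 and Rplp2 are attached to Rplp0. All 4 genes fell in resolution and 2 of 4 in inflammation, each against homeostasis, where 57 and 42 of all 76 members were lower. Of all genes tested, 25.8% and 18.3% were lower. Rplp0 had 1197, 1102, 898 and 992 CPM in resolution, 1402, 1328, 1163 and 1031 in inflammation and 1593, 1565, 1816 and 2066 in homeostasis, with homeostasis above all others. Its log2 fold change was -0.75 ± 0.14 in resolution (edgeR adjusted p = 0.000152) and -0.52 ± 0.14 in inflammation (edgeR adjusted p = 0.00620). Rpl12 had 39.0, 33.0, 23.0 and 28.8 CPM in resolution, 34.1, 34.3, 30.7 and 27.5 in inflammation and 46, 50.1, 48.7 and 54 in homeostasis, again without overlap between homeostasis and the others. It fell by 0.68 in resolution (SE 0.15, edgeR adjusted p = 0.000979) and by 0.65 in inflammation (SE 0.15, edgeR adjusted p = 0.00252).

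The paired stalk proteins gave less even values. Rplp2 had 62.0, 68.3, 79.0 and 68.2 CPM in resolution, 102, 99.0, 85.1 and 64.7 in inflammation and 107, 107, 116 and 102 in homeostasis. The inflammation libraries reached from the level of resolution up to that of homeostasis. Its log2 fold change was -0.64 ± 0.14 in resolution (edgeR adjusted p = 0.000870) and -0.30 ± 0.14 in inflammation, which did not pass (edgeR adjusted p = 0.103). Rplp1 had 357, 304, 332 and 304 CPM in resolution, 464, 440, 383 and 299 in inflammation and 460, 280, 525 and 520 in homeostasis. Homeostasis library 2 was the lowest of all 12. The call in resolution (-0.46 ± 0.17, edgeR adjusted p = 0.0318) was lost when any 1 of resolution libraries 2, 3 and 4 or homeostasis libraries 1, 3 and 4 was left out, and inflammation did not pass (-0.17 ± 0.17, edgeR adjusted p = 0.471).

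Rpl5 and Rpl11 bind 5S ribosomal RNA, and when ribosome assembly is disturbed the free particle inhibits Mdm2, the ubiquitin ligase of p53. Here Rpl11 passed in both comparisons against homeostasis and Rpl5 in neither. Rpl11 had 49.9, 51.3, 45.4 and 45.8 CPM in resolution, 61.9, 60.4, 49.2 and 43.0 in inflammation and 68.7, 86.6, 69.9 and 71.5 in homeostasis, with homeostasis above the rest and its library 2 far above its other libraries. It fell by 0.62 in resolution (SE 0.14, edgeR adjusted p = 0.000898) and by 0.47 in inflammation (SE 0.14, edgeR adjusted p = 0.0124), and the inflammation call was lost without inflammation library 4 or homeostasis library 2. Rpl5 had 142, 128, 128 and 135 CPM in resolution, 112, 102, 107 and 117 in inflammation and 147, 197, 113 and 97.0 in homeostasis. The homeostasis libraries straddled both other groups. Its log2 fold change was -0.06 ± 0.17 in resolution (edgeR adjusted p = 0.793) and -0.34 ± 0.17 in inflammation (edgeR adjusted p = 0.110). The difference between Rpl5 and Rpl11 was not tested. With a correction for GC content and transcript length both genes were lower in both comparisons, Rpl11 at -0.40 in resolution (edgeR adjusted p = 0.00262) and -0.42 in inflammation (edgeR adjusted p = 0.00253).

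Rps6 is the ribosomal protein phosphorylated downstream of mTORC1, by S6 kinase. It had 165, 128, 135 and 150 CPM in resolution, 113, 108, 103 and 123 in inflammation and 170, 205, 136 and 133 in homeostasis. The inflammation libraries were below all others, and resolution lay within the range of homeostasis or just under it. It fell by 0.53 in inflammation against homeostasis (SE 0.14, edgeR adjusted p = 0.00724). In resolution against homeostasis the value was -0.16 ± 0.14 (edgeR adjusted p = 0.376) and in resolution against inflammation 0.37 ± 0.14 (edgeR adjusted p = 0.0829), neither of which passed. A fit that paired same-numbered resolution and inflammation libraries, described with that comparison, was chosen after the data were seen. In it Rps6 was higher in resolution than in inflammation at 0.36 ± 0.10 (edgeR adjusted p = 0.00866), as were 17.5% of the genes tested. The numbers are not shown to pair libraries.

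Of 3 members known for roles outside the ribosome or from inherited disease, Rps27a and Rpl13a fell in both comparisons against homeostasis and Rps19 fell in resolution. Rps27a, made as a fusion with ubiquitin, had 33.4, 29.3, 31.6 and 31.1 CPM in resolution, 37.1, 36.5, 32.7 and 29.5 in inflammation and 48.8, 41.8, 44.5 and 40.4 in homeostasis, and homeostasis did not overlap with the others. It fell by 0.48 in resolution (SE 0.13, edgeR adjusted p = 0.00394) and by 0.37 in inflammation (SE 0.13, edgeR adjusted p = 0.0308), a call that was lost under 11 of the other settings and samplings tried. Rpl13a, known in human cells from an inflammation-induced complex that silences translation, had 430, 352, 316 and 349 CPM in resolution, 425, 389, 338 and 280 in inflammation and 485, 544, 535 and 604 in homeostasis, also without overlap. Its values of -0.58 ± 0.14 in resolution (edgeR adjusted p = 0.00180) and -0.60 ± 0.14 in inflammation (edgeR adjusted p = 0.00256) were close to each other. Rps19, the gene most often mutated in the inherited red cell disorder Diamond-Blackfan anaemia, had 82.5, 72.0, 80.2 and 81.4 CPM in resolution, 105, 108, 90.4 and 72.9 in inflammation and 119, 96.8, 125 and 132 in homeostasis. Resolution was below all homeostasis libraries, while inflammation overlapped with both. It fell by 0.58 in resolution (SE 0.14, edgeR adjusted p = 0.00179) and did not pass in inflammation (-0.33 ± 0.14, edgeR adjusted p = 0.0738). Of 9 members mutated in that disorder, 6 fell in resolution and 4 in inflammation, with medians of -0.48 and -0.35, while 57 and 42 of all 76 members and 25.8% and 18.3% of all genes were lower.

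Rpl38 and Rpl22 are members with described roles in particular transcripts or cell types: loss of Rpl38 alters Hox protein synthesis and the axial skeleton in mice, and Rpl22 is dispensable in most cells but needed for T cell development. Rpl38 had 6.29, 5.42, 6.49 and 5.82 CPM in resolution, 8.50, 9.79, 7.88 and 6.23 in inflammation and 10.6, 7.66, 9.91 and 8.47 in homeostasis. Resolution lay below homeostasis in every library and inflammation overlapped with both. The log2 fold change was -0.60 ± 0.18 in resolution (edgeR adjusted p = 0.00707) and -0.17 ± 0.17 in inflammation (edgeR adjusted p = 0.464). Rpl22 had 241, 236, 227 and 235 CPM in resolution, 305, 280, 248 and 218 in inflammation and 304, 362, 310 and 297 in homeostasis, the same arrangement. It fell by 0.44 in resolution (SE 0.13, edgeR adjusted p = 0.00590) and did not pass in inflammation (-0.28 ± 0.13, edgeR adjusted p = 0.0876). Rpl41, whose protein is the smallest of the ribosome, had 7.94, 10.4, 10.3 and 9.38 CPM in resolution, 14.2, 13.0, 11.3 and 8.93 in inflammation and 16.1, 12.1, 17.5 and 14.5 in homeostasis. It fell by 0.66 in resolution (SE 0.17, edgeR adjusted p = 0.00350), where no library overlapped with homeostasis, and did not pass in inflammation (-0.34 ± 0.17, edgeR adjusted p = 0.127). Of 8 members around the exit of the peptide tunnel, 5 fell in resolution (Rpl19, Rpl31, Rpl35, Rpl38 and Rpl39) and 3 in inflammation (Rpl19, Rpl23a and Rpl35). Their medians were -0.42 and -0.30, while 57 and 42 of all 76 members and 25.8% and 18.3% of all genes were lower.

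The 4 X-linked members were described separately because the groups differ in sex-linked transcripts. Rpl10, Rpl36a and Rpl39 fell in resolution and Rpl10 fell in inflammation, each against homeostasis. In these comparisons 57 and 42 of all 76 members and 25.8% and 18.3% of all genes were lower. Rpl10, a late-joining 60S protein, had 58.8, 54.9, 44.5 and 51.1 CPM in resolution, 66.8, 63.3, 52.3 and 49.0 in inflammation and 74.6, 62.3, 80.9 and 86.0 in homeostasis. Resolution was below homeostasis throughout and inflammation overlapped with it, and the values were -0.54 ± 0.14 in resolution (edgeR adjusted p = 0.00391) and -0.39 ± 0.14 in inflammation (edgeR adjusted p = 0.0379). The inflammation call of Rpl10 was lost under 15 of the other settings and samplings. Rpl36a had 30, 30.5, 29.2 and 26.9 CPM in resolution, 30.6, 33.3, 29.3 and 25.5 in inflammation and 37.5, 50.6, 34.2 and 30.9 in homeostasis. Resolution lay below homeostasis in every library, and inflammation library 2 reached above homeostasis library 4. The value was -0.39 ± 0.15 in resolution (edgeR adjusted p = 0.0372), lost without any 1 of resolution libraries 1, 3 and 4 or homeostasis libraries 1 and 2, and -0.37 ± 0.15 in inflammation, which did not pass (edgeR adjusted p = 0.0661). Rpl39, which lines the exit tunnel, had 19.7, 22.4, 29.4 and 25.7 CPM in resolution, 35.8, 37.8, 30.2 and 23.7 in inflammation and 42.5, 27.5, 33.7 and 33.5 in homeostasis. Both doxycycline groups overlapped with homeostasis, and the value was -0.50 ± 0.18 in resolution (edgeR adjusted p = 0.0223), lost without resolution library 1 or homeostasis library 1, and -0.11 ± 0.17 in inflammation (edgeR adjusted p = 0.669).

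Rps4x had 258, 165, 232 and 246 CPM in the resolution libraries, 179, 157, 155 and 218 in the inflammation libraries and 243, 173, 174 and 165 in the homeostasis libraries. Homeostasis library 1 lay far above the other homeostasis libraries, resolution library 2 was the lowest of its group and inflammation library 4 the highest of its group, and the groups overlapped. Its log2 fold change was 0.26 ± 0.16 in resolution (edgeR adjusted p = 0.193) and -0.09 ± 0.16 in inflammation (edgeR adjusted p = 0.704), each against homeostasis, and neither passed.

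A few members ran against the majority. Rpl7 (chr1:16101295-16104662, minus strand, GRCm38), which encodes a 60S protein that binds RNA, was the member called higher in resolution against homeostasis, as were 27.5% of all genes. It had 286, 217, 256 and 299 CPM in resolution, 200, 184, 176 and 223 in inflammation and 236, 238, 187 and 141 in homeostasis. Of the resolution libraries, 1, 3 and 4 lay above every homeostasis library, and library 2 lay among them. The fold change was 0.40 ± 0.16 in resolution (edgeR adjusted p = 0.0379) and -0.03 ± 0.16 in inflammation (edgeR adjusted p = 0.889). The rise was lost without any 1 of resolution libraries 1, 3 and 4 or homeostasis libraries 3 and 4, and was 0.08 (edgeR adjusted p = 0.529) with a correction for GC content and transcript length.

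Rpl21, Rps15a and Rpl17 had values above 0 in resolution against homeostasis without passing, and Rps29 had them in both comparisons against homeostasis. Rpl21 had 82.3, 65.4, 86.7 and 91.7 CPM in resolution, 62.0, 63.0, 60.5 and 65.1 in inflammation and 78.0, 82.9, 55.3 and 48.3 in homeostasis. Resolution lay above inflammation in every library, and the homeostasis libraries split, with 1 and 2 near resolution and 3 and 4 below inflammation. Its value in resolution against homeostasis was 0.30 ± 0.16 (edgeR adjusted p = 0.121), and it shares 36.8% of its windows with 40 other genes. Rps15a had 109, 91.5, 106 and 109 CPM in resolution, 92.8, 86.5, 79.9 and 95.3 in inflammation and 117, 93.5, 89.0 and 82.2 in homeostasis, all overlapping, with 0.12 ± 0.13 in resolution (edgeR adjusted p = 0.455). Rpl17 had 50.9, 45.1, 45.6 and 48.2 CPM in resolution, 37.7, 37.2, 33.0 and 40.5 in inflammation and 47.3, 63.6, 39.0 and 38.3 in homeostasis, with 0.01 ± 0.15 in resolution (edgeR adjusted p = 0.964) and -0.35 ± 0.15 in inflammation (edgeR adjusted p = 0.0843). Rps29, the lowest member per kilobase, had 2.47, 2.38, 2.81 and 2.96 CPM in resolution, 3.34, 4.22, 2.99 and 2.87 in inflammation and 3.10, 2.49, 2.34 and 2.31 in homeostasis. It was the single member above 0 in inflammation against homeostasis, at 0.39 ± 0.21, and did not pass (edgeR adjusted p = 0.154). In resolution against homeostasis it had 0.06 ± 0.22 (edgeR adjusted p = 0.845). Its smallest count was 41 reads.

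Resolution was set against inflammation to ask what changed after doxycycline was stopped. Rpl3 alone passed, with a log2 fold change of -0.49 ± 0.14 (edgeR adjusted p = 0.0206), while 7.64% of all genes were lower and 8.52% higher. The median over the members was -0.11 against 0.02 over all genes. At an unadjusted p under 0.05, 10 members differed, while 16.2% of all genes passed the adjusted threshold in either direction. The share of all genes at the unadjusted threshold was not counted. In 6 members, Rpl4, Rpl5, Rpl17, Rpl21, Rpl23 and Rps6, every resolution library was above every inflammation library, and 8.94% of all genes did so. Their log2 fold changes ran from 0.23 to 0.38 and none of them passed. Rpl4 may serve as an example of a highly expressed member: it averaged 1108 ± 83.6 CPM in resolution, 944 ± 40 in inflammation and 1422 ± 290.0 in homeostasis (SD, n = 4 each), and it was chosen after its values were seen. The call of Rpl3 was lost without inflammation library 1 or 2 or resolution library 3 or 4. The count of lower members was 5 without inflammation library 4, where 7.52% of all genes were lower.

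Deviations from the group means correlated at 0.17 to 0.29 between resolution and inflammation libraries with the same replicate number. Between libraries of these groups with different numbers the correlations ran from -0.34 to 0.28, so the numbers are not shown to pair libraries. The comparison was also fitted to these 8 libraries with a term for the number. In this paired fit, which was chosen after the data were seen, 5 members were lower and 6 higher in resolution than in inflammation, while 15.1% of the genes tested were lower and 17.5% higher. The lower members were Rpl3 (-0.51 ± 0.10, edgeR adjusted p = 0.000482), Rps2, Rplp1, Rplp2 and Rpl36, with the last 4 between -0.43 and -0.29. The higher members were Rpl7 (0.42 ± 0.10, edgeR adjusted p = 0.00279), Rps6, Rpl5, Rpl17, Rpl21 and Rps4x, with the last 5 between 0.28 and 0.36. The members' counts in both directions thus stood at smaller shares than those over all genes, and their median was -0.12.

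Because ribosomal protein transcripts are short, they were set beside other genes of the same length and GC content. The members' transcripts had a median length of 705 bases (271 to 3706) against 2725 for the other tested genes, and a median GC content of 51.9% against 50.6%. In other genes the medians of the short length bins lay near 0. Among the 311 other genes under 500 bases the median log2 fold change was 0.02 in resolution and 0.04 in inflammation, each against homeostasis, while the 17 members of that length had -0.50 and -0.33. Among the 1077 other genes of 500 to 1000 bases it was -0.06 and 0.00, while the 42 members had -0.51 and -0.39. In resolution 15 of the 17 and 30 of the 42 members were lower, against 19.3% and 24.8% of other genes in these bins. In inflammation 4 of the 17 and 26 of the 42 members were lower, against 8.68% and 13.2% of other genes. Among the members themselves, length and log2 fold change had a Spearman's rho of -0.08 in resolution and -0.42 in inflammation. In inflammation Pearson's r was -0.15, and the 2 members of 2000 to 4000 bases had a median of -0.21. The falls in inflammation thus did not grow with length throughout. The 15 members of 1000 to 2000 bases had medians of -0.65 in resolution and -0.59 in inflammation, against -0.10 and -0.03 for other genes of that length.

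GC content did show a trend. In resolution against homeostasis, the median of other genes was 0.97 for transcripts under 42% GC and -0.31 for those of 54 to 58%, and in inflammation against homeostasis it was 0.56 and -0.11. The members followed the trend in resolution, with a Spearman's rho of -0.43 between GC content and log2 fold change across the 76 genes, and less so in inflammation (rho -0.15). These are descriptions across genes of the same libraries. Within each GC bin the members still lay lower than other genes: in resolution the 27 members of 50 to 54% GC had a median of -0.55 against -0.21, and the 19 of 54 to 58% had -0.59 against -0.31. In inflammation these values were -0.47 against -0.16 and -0.38 against -0.11.

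When the count model was given a smooth correction per library for GC content and length, estimated on the genes outside the family, the median of the members was -0.38 in resolution and -0.39 in inflammation, each against homeostasis, and 0.04 in resolution against inflammation, where its sign turned. With it, 53 members were lower in resolution, of which 49 were among the 57 called without it, and 23.8% of all genes were lower. In inflammation 58 were lower, including 40 of the 42 called without it, and 20.5% of all genes were lower. In resolution against inflammation 2 members were lower and 2 higher with it, while 8.07% of all genes were lower and 8.04% higher. The corrected values of single members moved both ways. Rpl5 had -0.62 in resolution (edgeR adjusted p = 0.00167) and -0.69 in inflammation (edgeR adjusted p = 0.00101) with the correction, both past the threshold. Rps6 was higher in resolution than in inflammation, at 0.40 (edgeR adjusted p = 0.0112). Rpl21 was higher in resolution than in homeostasis, at 0.56 (edgeR adjusted p = 0.0295). Rpl38, Rplp1 and Rpl29 no longer passed in resolution, at -0.35, -0.19 and -0.32. Rpl3, Rps2 and Rpsa kept their calls, with -0.85, -0.74 and -0.61 in resolution against homeostasis. The order of the members changed there. The largest corrected falls were those of Rps25 (-1.03, edgeR adjusted p = 1.90e-06) and Rps23 (-0.91, edgeR adjusted p = 6.20e-06). Rps20, at -0.13 without the correction, was at -0.80 with it (edgeR adjusted p = 4.10e-05). The libraries of a group differed in the same trend: among other genes under 42% GC, the median deviation from the overall mean was 0.10 in resolution library 2 and 0.38 to 0.61 in the other resolution libraries. Among other genes of at least 58% GC, it was -0.05 and -0.15 in homeostasis libraries 1 and 2 and 0.19 and 0.36 in libraries 3 and 4. Under 42% GC the homeostasis libraries had -0.54 to -0.28 without such a split. Both comparisons against homeostasis rest on these libraries.

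**Figure D4:**
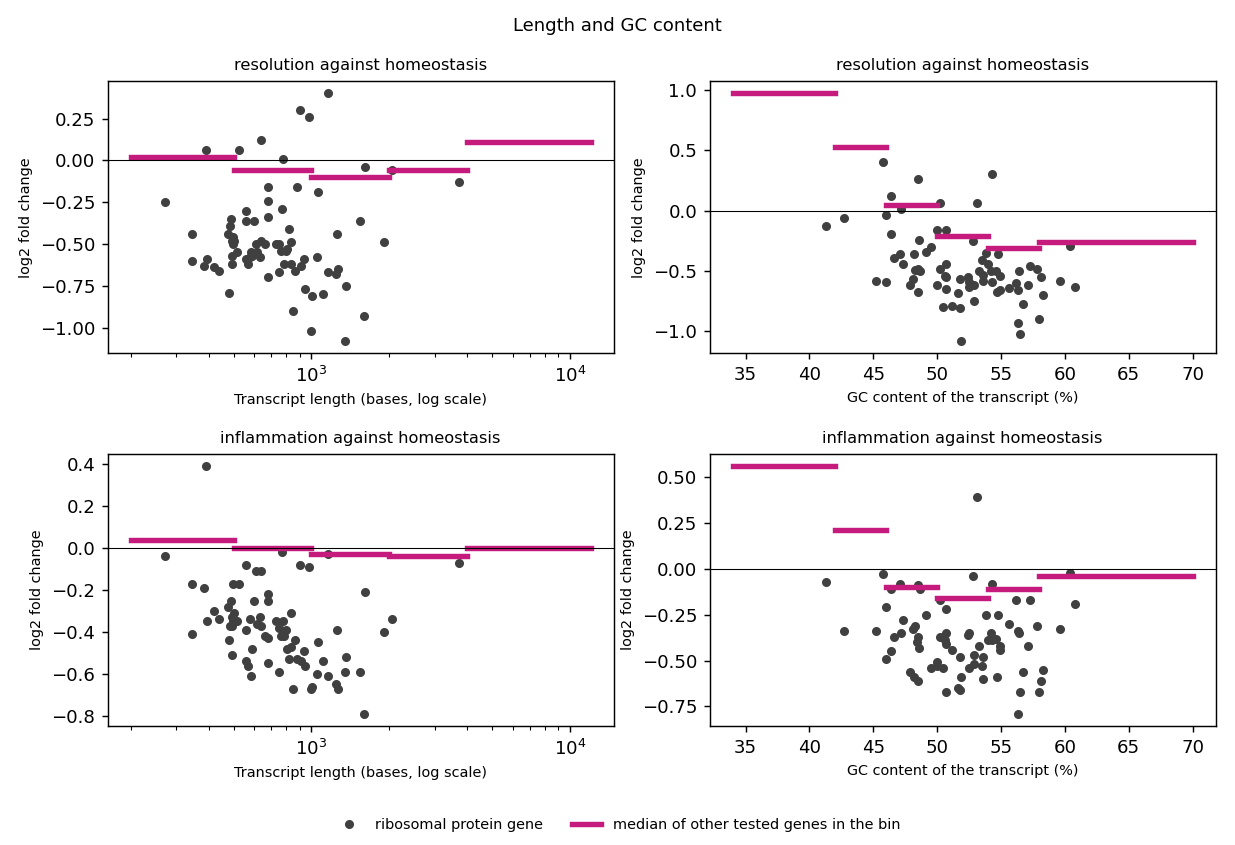
Log2 fold change of each ribosomal protein gene (points) by transcript length in bases (left, log scale) and GC content in percent (right), for resolution against homeostasis (top) and inflammation against homeostasis (bottom). Horizontal lines give the median of the other tested genes in each bin. For transcripts under 1000 bases the lines lie between -0.06 and 0.04, and most points lie well below them.

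Lists of related genes were read against the shares over all genes tested. These were 25.8% lower and 27.5% higher in resolution and 18.3% lower and 19.0% higher in inflammation, each against homeostasis. Of 40 ribosome biogenesis genes, whose products build ribosomes, 22 fell and 1 rose in resolution, and 24 fell and none rose in inflammation, each against homeostasis, with medians of -0.46 and -0.50. Among them were Polr1b, a subunit of RNA polymerase I (20 ± 0.806 CPM in resolution, 26.9 ± 2.02 in inflammation and 47.6 ± 4.76 in homeostasis), and the nucleolar proteins Nop56 and Nolc1. Their log2 fold changes in resolution against homeostasis were -1.25 ± 0.13 for Polr1b (edgeR adjusted p = 2.17e-07), -1.19 ± 0.13 for Nop56 (edgeR adjusted p = 3.19e-07) and -1.35 ± 0.15 for Nolc1 (edgeR adjusted p = 5.12e-07). In inflammation they were -0.82 ± 0.13 (edgeR adjusted p = 5.94e-05), -0.84 ± 0.13 (edgeR adjusted p = 3.99e-05) and -1.13 ± 0.15 (edgeR adjusted p = 8.54e-06). Between resolution and inflammation 6 of the 40 were lower in resolution, among them Rrp12, an export factor of pre-ribosomes (-0.49 ± 0.12, edgeR adjusted p = 0.0109), and 7.64% of all genes were lower. In the paired fit of these groups 13 of the 40 were lower and 4 higher, where 15.1% of the genes tested were lower and 17.5% higher. With the number as a term over all 12 libraries 2 were lower, where 6.31% of all genes were lower.

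Mitochondrial ribosomal proteins, which are encoded in the nucleus and build a separate ribosome, also had medians below 0. Of 77, 48 fell and 4 rose in resolution and 27 fell and 1 rose in inflammation, each against homeostasis, with medians of -0.47 and -0.30. They were not tested against the cytosolic members, of which 57 fell in resolution and 42 in inflammation. Mrpl18 had 37.7 ± 2.68 CPM in resolution, 44.3 ± 5.13 in inflammation and 69.9 ± 3.72 in homeostasis, and fell by 0.89 in resolution (SE 0.13, edgeR adjusted p = 9.29e-06) and by 0.66 in inflammation (SE 0.13, edgeR adjusted p = 0.000440). The nuclear genes of the respiratory chain, another family of short and abundant transcripts, had medians of -0.13 and 0.01. Of these 52 genes, 11 fell and 3 rose in resolution, and 2 fell and 2 rose in inflammation.

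Of 29 translation factors and other messengers with TOP motifs, 10 fell and 6 rose in resolution and 13 fell and 2 rose in inflammation, each against homeostasis, with medians of -0.24 and -0.27. Pabpc4, a poly(A)-binding protein, fell by 1.22 in resolution (SE 0.13, edgeR adjusted p = 2.28e-07) and by 1.03 in inflammation (SE 0.13, edgeR adjusted p = 3.89e-06). The initiation helicase Eif4a2 rose in both, by 1.76 ± 0.13 in resolution (edgeR adjusted p = 1.68e-09) and 1.30 ± 0.13 in inflammation (edgeR adjusted p = 2.22e-07). Eif3e, a subunit of initiation factor eIF3, had 212 ± 26.7 CPM in resolution, 146 ± 15.3 in inflammation and 106 ± 11.4 in homeostasis, and rose by 1.00 ± 0.13 in resolution against homeostasis (edgeR adjusted p = 3.84e-06) and by 0.54 ± 0.13 in resolution against inflammation (edgeR adjusted p = 0.00905). Of 23 mTORC1 components and regulators of ribosomal protein transcripts, 7 fell and 7 rose in resolution and 7 fell and 3 rose in inflammation, each against homeostasis, and the counts in resolution were close to the shares over all genes.

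Named regulators of ribosome production in that list moved in different directions. Myc, which drives transcription of ribosomal genes, had 27.8 ± 4.44 CPM in resolution, 47.1 ± 2.13 in inflammation and 64.5 ± 11.4 in homeostasis, and fell by 1.22 in resolution against homeostasis (SE 0.15, edgeR adjusted p = 1.66e-06). Larp1, which binds TOP motifs, fell by 0.60 in inflammation against homeostasis (SE 0.13, edgeR adjusted p = 0.00169). Gabpa, a subunit of the ETS-family factor GABP, had 106 ± 23.2 CPM in resolution, 70.5 ± 5.99 in inflammation and 46.2 ± 6.37 in homeostasis, and rose by 0.59 ± 0.16 in resolution against inflammation (edgeR adjusted p = 0.0150). Mdm2 had 317 ± 60.1 CPM in resolution, 162 ± 20.2 in inflammation and 120 ± 24.8 in homeostasis, and Trp53, which encodes p53, had 81.8 ± 16.4, 105 ± 12.4 and 173 ± 30.5 in the same groups. Against homeostasis, resolution had a log2 fold change of 1.40 ± 0.17 for Mdm2 (edgeR adjusted p = 1.05e-06) and -1.08 ± 0.16 for Trp53 (edgeR adjusted p = 1.08e-05).

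Of 8 ribosomal proteins and paralogs outside the naming rule, 2 fell in resolution and 2 in inflammation, each against homeostasis, which is close to the shares over all genes. Their medians were -0.28 and -0.21, and -0.35 and -0.38 with the correction for GC content and length. Rps3a1, the 40S protein eS1, had 248 ± 28.5 CPM in resolution, 208 ± 11.8 in inflammation and 266 ± 47.9 in homeostasis, and fell by 0.36 in inflammation (SE 0.14, edgeR adjusted p = 0.0471). Fau, whose product carries a 40S protein, had 29.9 ± 0.824 CPM in resolution, 33.2 ± 5.23 in inflammation and 38.5 ± 1.89 in homeostasis and fell by 0.37 in resolution (SE 0.13, edgeR adjusted p = 0.0275). Rpl7l1, a paralog of Rpl7, fell by 0.70 in resolution (SE 0.13, edgeR adjusted p = 0.000175) and by 0.53 in inflammation (SE 0.13, edgeR adjusted p = 0.00339).

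**Figure D5:**
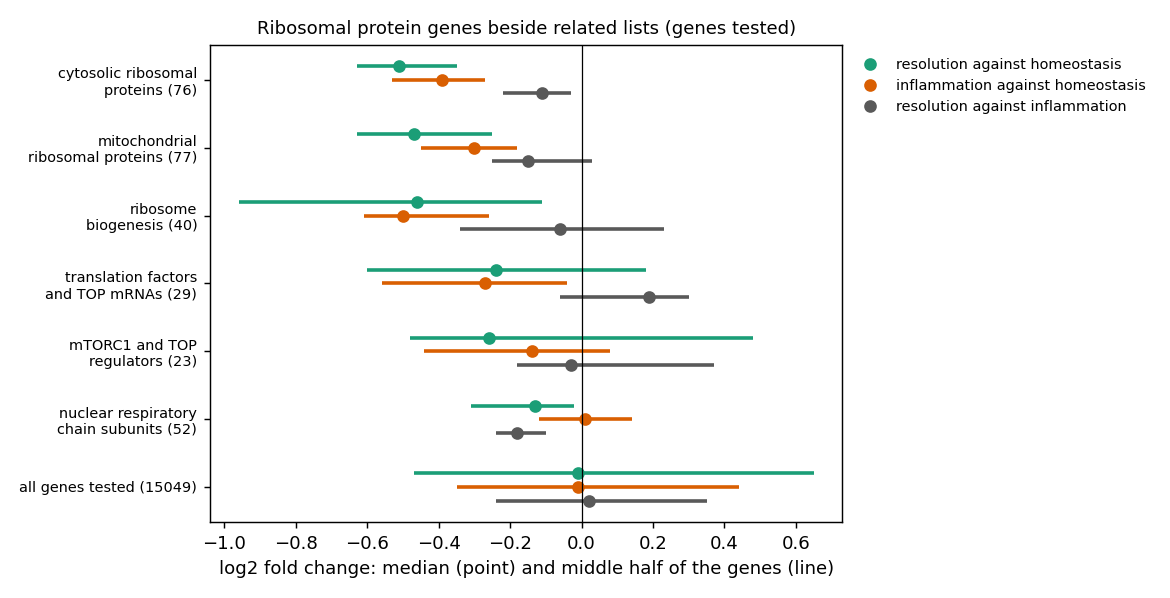
Median log2 fold change (points) and the range of the middle 50% of genes (lines) for the ribosomal protein genes and related lists, with the number of genes tested in brackets, in the 3 comparisons. Cytosolic ribosomal proteins (-0.51 in resolution and -0.39 in inflammation, against homeostasis), mitochondrial ribosomal proteins (-0.47 and -0.30) and ribosome biogenesis genes (-0.46 and -0.50) lie left of all genes tested (-0.01 and -0.01).

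Other features of the libraries moved with the same groups. In CPM scaled to the total count, the 6 proliferation markers summed to 103 to 132 CPM in resolution, 229 to 282 in inflammation and 667 to 784 in homeostasis, and all 6 fell in each of the 3 comparisons. The 5 chondrocyte markers summed to 66.6 to 93.1, 34.1 to 44.3 and 827 to 1108 CPM in the same groups, with Col2a1 at 2.43 to 4.04 CPM in resolution, 1.99 to 3.23 in inflammation and 723 to 954 in homeostasis. The 11 macrophage markers in the table summed to 59.5 to 72.7 CPM in resolution, 591 to 688 in inflammation and 115 to 145 in homeostasis, and the 3 lymphocyte markers summed to 0 to 0.497, 2.47 to 4.28 and 0.229 to 0.817 CPM in the same groups, with Cd3e at 0 in every library. The part of proliferation, of other cell types, of sex and of genotype in the levels of the ribosomal protein genes was not tested.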

How the data were processed

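The authors deposited 1 table of expected counts per gene symbol for 12 libraries of cultured mouse fibroblast-like synoviocytes, not normalized, and 1.43% of its values were not whole. No count of a ribosomal protein gene was among these. Libraries were poly(A)-enriched and read in pairs of 150 bases, per the labels' protocols. Per the submitters' processing notes, reads were placed on GRCm38.p3. The sources used here name no aligner, counter, strand setting or treatment of reads with several matches.

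From 36930 table entries, 13 without a value were dropped and 42 repeats of 34 symbols were summed, which left 36875. Counts were rounded. edgeR 4.0.16 in R 4.3.3 was fitted with its quasi-likelihood test (robust, TMM factors, default expression filter) to the 12 libraries together, with a single term for group. Benjamini-Hochberg adjustment ran over 15049 genes, and the threshold was 0.05. The fitted biological coefficient of variation was 18.6%. Fold changes carry a standard error (SE) and levels are TMM-normalized CPM, except those of marker genes, which were scaled to total counts. Total counts of 18120745 to 34971537 make counting error small for most members, and a count of 0 allows up to 3 counts.

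Transcript length, GC content and shared 100-base windows came from the shortest principal coding transcript in the GENCODE annotation of GRCm38. Lengths were known for 14134 tested genes. Corrections for GC and length were smooth terms with 5 degrees of freedom each, fitted per library to genes outside the family. DESeq2 1.42.0 and limma 3.58.1 were alternatives.

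The members and lists were chosen with earlier results of these data known. Values per library were given for 18 members with a named role, for the 4 largest rises and falls per comparison among those that passed, for up to 4 members against the majority, and for the 3 highest and 3 lowest per kilobase, 31 in all, of which 1 is not reported here. Of other lists, up to 4 genes per comparison with the smallest adjusted p could be named. Replicate numbers come from the titles. Same-numbered libraries of resolution and inflammation had correlated deviations from the group means (0.17 to 0.29), and those with different numbers had -0.34 to 0.28. The same-numbered ones were taken as pairs in a fit to these 8 libraries that was added after the data were seen. Same-numbered pairs with homeostasis correlated between -0.34 and 0.12 and were not.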

Additional observations from a re-analysis of the deposited data

Results flagged for a closer look

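Each group of 4 libraries of the 31 members given by library, and of the summed share, was searched for a library far from the rest. Among 96 such groups, 2 had one, where chance gives about 1 in 20 groups. Rpl11 had 86.6 CPM in homeostasis library 2, far above 68.7, 69.9 and 71.5 CPM in the other homeostasis libraries. Rps4x had 243 CPM in homeostasis library 1, far above 173, 174 and 165 CPM in the other homeostasis libraries.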

How the results depend on the processing

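The members were called lower in most settings, but the number called and several single calls depended on the setting and on single libraries. In inflammation against homeostasis, 27 members were lower with upper-quartile factors, where 14.3% of all genes were lower. When 1 library was left out, 24 to 45 were lower, with 24 without inflammation library 4 and medians of -0.44 to -0.29. Of all genes, 13.6% to 19.5% were lower in those fits. In resolution against homeostasis, 49 to 56 were lower when 1 library was left out, with medians of -0.55 to -0.49, where 22.1% to 27.5% of all genes were lower. The median was -0.38 with GC and length offsets and -0.37 with these and a replicate block. In this comparison, 0 members were higher with a replicate block, with offsets and block, with homeostasis libraries 1 and 2 only or with only the groups compared. With homeostasis libraries 3 and 4 only 5 were higher, where 4309 of 15715 genes were. When 1 library was left out 0 to 3 were higher, where 3720 to 4296 of all genes were. In resolution against inflammation, the median of the members was 0.04 with offsets and 0.04 with offsets and block, a change of sign, and -0.21 to -0.06 when 1 library was left out. Lower members numbered 2 with offsets, 1 with offsets and block, 2 with homeostasis libraries 3 and 4 only, and 0 to 5 when 1 library was left out. Of all genes, 8.07%, 7.64%, 10.7% and 4.97% to 11.9% were lower in the same order. Higher members numbered 1 without a filter, 2 with offsets, 2 with offsets and block, 3 with homeostasis libraries 1 and 2 only, 4 with 3 and 4 only, 3 with only the groups compared, and 0 to 4 when 1 library was left out. Higher among all genes, in the same order, were 1635 of 27140, 1210 of 15049, 1127 of 15049, 1621 of 15733, 1796 of 15715 and 1623 of 14739. When 1 library was left out 482 to 2360 of all genes were higher. The replicate block over all 12 libraries left 54 lower members in resolution (all genes: 24.3%) and 35 in inflammation (all genes: 16.0%), each against homeostasis. In those comparisons the numbers were not taken to pair libraries. In resolution against inflammation, where they were, the block left 1 lower (all genes: 6.31%), 0 higher and a median of -0.11. Paired within the 8 libraries of these groups, an alternative chosen after seeing the data, 5 were lower and 6 higher. In that fit 15.1% of all genes were lower and 17.5% higher. With offsets 7 were lower and 8 higher with a median of 0.03, where 12.0% and 12.6% of all genes were called. The call of Rpl3 held in each of these paired fits. Values of single members that did not pass changed sign in 32 cases. In inflammation against homeostasis, Rplp1 was 0.10 with homeostasis libraries 1 and 2 only. With 3 and 4 only, Rpl5 was 0.08, Rps4x 0.09, Rpl7 0.28, Rpl21 0.30 and Rps15a 0.08. Rpl7 was also 0.04 with upper-quartile factors and 0.00 with only the groups compared. In resolution against homeostasis, Rpl5 was 0.35 (edgeR adjusted p = 0.0303) and Rps6 0.11 with homeostasis libraries 3 and 4 only. With 1 and 2 only, Rps29 was -0.07, Rps15a -0.03 and Rpl17 -0.24. Rps15a was -0.17 with offsets and -0.17 with offsets and block, and Rpl17 was -0.15 and -0.14 there and -0.01 without a filter. When 1 library was left out, values in inflammation ran from -0.18 to 0.03 for Rpl39, -0.19 to 0.08 for Rps4x, -0.16 to 0.08 for Rpl7, -0.19 to 0.07 for Rpl21 and -0.16 to 0.03 for Rps15a, and in resolution from -0.19 to 0.17 for Rpl5 and -0.08 to 0.20 for Rpl17, each against homeostasis. The cause of these changes was not tested. Counted over members, comparisons and settings, 39 results of the 31 members given by library moved past the threshold and 93 moved below it. Gene-level counts limit what can be said of members that share sequence with pseudogenes, and the smallest count of a member was 41.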
